A study of Mus musculus with 6 samples.

Results

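Matrix metalloproteinases (MMPs) and their tissue inhibitors (TIMPs) were examined in bulk RNA-Seq data of the mouse ductus arteriosus (DA). The members were taken by gene symbol from the deposited table and comprised 10 of its 23997 genes, 6 MMPs (*Mmp2*, *Mmp9*, *Mmp11*, *Mmp14*, *Mmp15*, and *Mmp23*) and 4 TIMPs (*Timp1*, *Timp2*, *Timp3*, and *Timp4*). The DA was dissected from C57BL/6 embryos at E17.5 without treatment, with 3 libraries from WT embryos and 3 from embryos of the genotype *Prdm6* fl/fl SM22-Cre (cKO), in which Cre-recombinase expressed in smooth muscle cells (SMCs) acts on floxed *Prdm6*. The WT embryos are described as littermates. Neither the labels nor the methods say whether a library came from a single embryo or from pooled vessels, or which part of *Prdm6* is floxed. The comparison asks how the transcripts of these proteases and inhibitors differ when *Prdm6* is disrupted in the muscle of this vessel.

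MMPs are zinc-dependent proteases that cut collagens, elastin, fibronectin, and other proteins of the extracellular matrix, and most are made as inactive proenzymes. Each TIMP binds the catalytic site of active MMPs, and TIMP2 also docks the proenzyme of MMP2 onto MMP14 at the cell surface, where a free MMP14 molecule cuts and activates it. In blood vessels these enzymes are known for matrix turnover, SMC migration, and formation of the intimal cushions that narrow the DA before birth.

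The values were FPKM, which scales the fragments of a gene by its transcript length and by the size of the library, so that levels of different genes within a library can be compared. FPKM holds no read counts and the total depth is unknown. Judged by the steps between low values, relative depth ranged from 0.933 in WT library 2 to 1.197 in cKO library 1, with WT library 1 set to 1. This estimate left out ratios far from 1 and rested on 35 genes in WT library 2, so it cannot show a large difference in depth. Between 8338 and 11886 genes were listed at 0 in a library, most in WT library 2, and 34 to 61 of the 3506 genes whose mean was 20 FPKM or more were among them, so that a value of 0 can be a failed estimate. *Prdm6* itself was at 19.8 to 48.4 FPKM in WT and 15.4 to 48.6 FPKM in cKO. These ranges overlap, and a whole-gene value does not test the labels if only a part of the gene is floxed. By qRT-PCR, the paper reports lower *Prdm6* in the DA and the aorta of cKO mice. All 10 SMC markers were above 0 in every library. cKO library 0 held both *Xist* (81.0 FPKM) and the Y-linked *Ddx3y* (26.4 FPKM), which no other library did at a level over 1 FPKM for both. WT library 1 and cKO library 2 stood apart in 10 heart muscle markers, which summed to 1685 and 1905 FPKM against 63.6 to 459 FPKM in the other libraries.

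The members that the results turn on are *Mmp14*, *Timp2*, *Mmp2*, and *Mmp23*. *Mmp14* lies on chromosome 14 of GRCm38 (mm10) from 54431612 to 54445364, *Timp2* on chromosome 11 from 118301069 to 118355740, *Mmp2* on chromosome 8 from 92827291 to 92853420, and *Mmp23* on chromosome 4 from 155650655 to 155653384. Because these transcripts were lower together, promoters are shown for *Mmp14*, *Timp2*, and *Mmp23*. No window of *Mmp2* was at hand, so none is shown. Each sequence shown is a RefSeq window of 300 bases on GRCm38.p6, with 250 before and 50 after the start. Capitals mark the GC box (GGGCGG on either strand), and the 2 boxes of *Mmp14* stand end to end. The windows are chr14:54431348-54431647 on the plus strand, chr11:118355362-118355661 on the minus strand, and, for the downstream one of 2 starts of *Mmp23*, chr4:155653241-155653540 on the minus strand. The window of the upstream start of *Mmp23*, which is not printed, held 0 GC boxes.
*Mmp14*: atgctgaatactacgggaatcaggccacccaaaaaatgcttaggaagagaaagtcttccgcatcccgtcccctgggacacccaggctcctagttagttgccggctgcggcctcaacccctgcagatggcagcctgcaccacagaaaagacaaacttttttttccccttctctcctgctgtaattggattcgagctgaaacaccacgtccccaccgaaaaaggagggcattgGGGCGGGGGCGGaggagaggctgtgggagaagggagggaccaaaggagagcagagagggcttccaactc
*Timp2*: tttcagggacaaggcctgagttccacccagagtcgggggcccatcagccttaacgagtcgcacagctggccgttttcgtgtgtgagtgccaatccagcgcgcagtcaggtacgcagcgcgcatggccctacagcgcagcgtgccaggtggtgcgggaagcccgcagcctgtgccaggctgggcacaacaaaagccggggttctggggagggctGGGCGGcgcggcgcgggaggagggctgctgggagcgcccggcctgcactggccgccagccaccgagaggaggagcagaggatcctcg
*Mmp23*: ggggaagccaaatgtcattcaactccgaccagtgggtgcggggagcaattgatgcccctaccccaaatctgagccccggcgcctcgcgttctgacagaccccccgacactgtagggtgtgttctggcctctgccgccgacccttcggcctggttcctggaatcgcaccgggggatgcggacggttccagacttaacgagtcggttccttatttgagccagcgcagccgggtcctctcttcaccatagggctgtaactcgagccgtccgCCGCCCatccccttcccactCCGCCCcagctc

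RefSeq windows were at hand for 8 of the members, 9 windows in all, and not for *Mmp2* and *Mmp9*. A GC box was present in 7 of the 9 windows, against 35.7% of the 32851 mouse promoters of this length. Among them were the windows of *Mmp11*, *Mmp15*, *Timp1*, and *Timp3*, whose levels in WT and cKO overlapped. The windows of the members are rich in G and C, from 53.3% in *Timp4* to 68.7% in *Timp2*. The AP-1 motif (TGANTCA), known from MMP promoters, was in 0 of the 9 windows and in 7.81% of all promoters, and the CArG box bound by serum response factor was in 0 of the 9 and in 1.63% of all. Only exact matches to the motifs were counted, and *Mmp2* and *Mmp9*, which have no window here, were not searched. These matches describe the letters in these windows only.

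The 10 members spanned a wide range of levels. *Mmp14*, a membrane-anchored MMP that cuts fibrillar collagen, was the most abundant, with a mean of 193 FPKM over the 6 libraries. It was followed by *Mmp2*, the gelatinase that MMP14 activates, at 115 FPKM, and by *Timp2* at 103 FPKM. *Timp3*, which binds to the matrix and also inhibits ADAM proteases, had a mean of 50.9 FPKM and *Mmp23*, a membrane-bound MMP without the usual cysteine switch, 43.0 FPKM. The other 5 members had means under 8 FPKM. The genes of the activation complex, *Mmp14*, *Timp2*, and *Mmp2*, thus held the 3 highest levels.

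Neighbours in this order were compared within libraries by a two-sided exact sign-flip permutation test over the 6 libraries, whose smallest p is 0.031. The order came from the means of these same 6 libraries, WT and cKO together, so the p values are no independent test of it. *Mmp14* lay above *Mmp2* in 6 of 6 libraries, with a ratio of FPKM of 1.31 to 2.90 (exact p = 0.031, adjusted p = 0.0521 over 5 pairs). *Timp2* above *Timp3* and *Mmp23* above *Mmp15* were also in that order in 6 of 6 libraries, with the same p. *Mmp2* and *Timp2* did not differ beyond their spread, with *Mmp2* higher in 5 of 6 libraries (exact p = 0.375, adjusted p = 0.469). *Timp3* and *Mmp23* did not either (exact p = 0.594, adjusted p = 0.594). The 4 pairs below *Mmp15* include a library listed at 0 and were not tested. Among them, *Mmp15* was above *Timp1* in 3 of 6 libraries, so that this pair has no clear order.

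**Figure D1:**
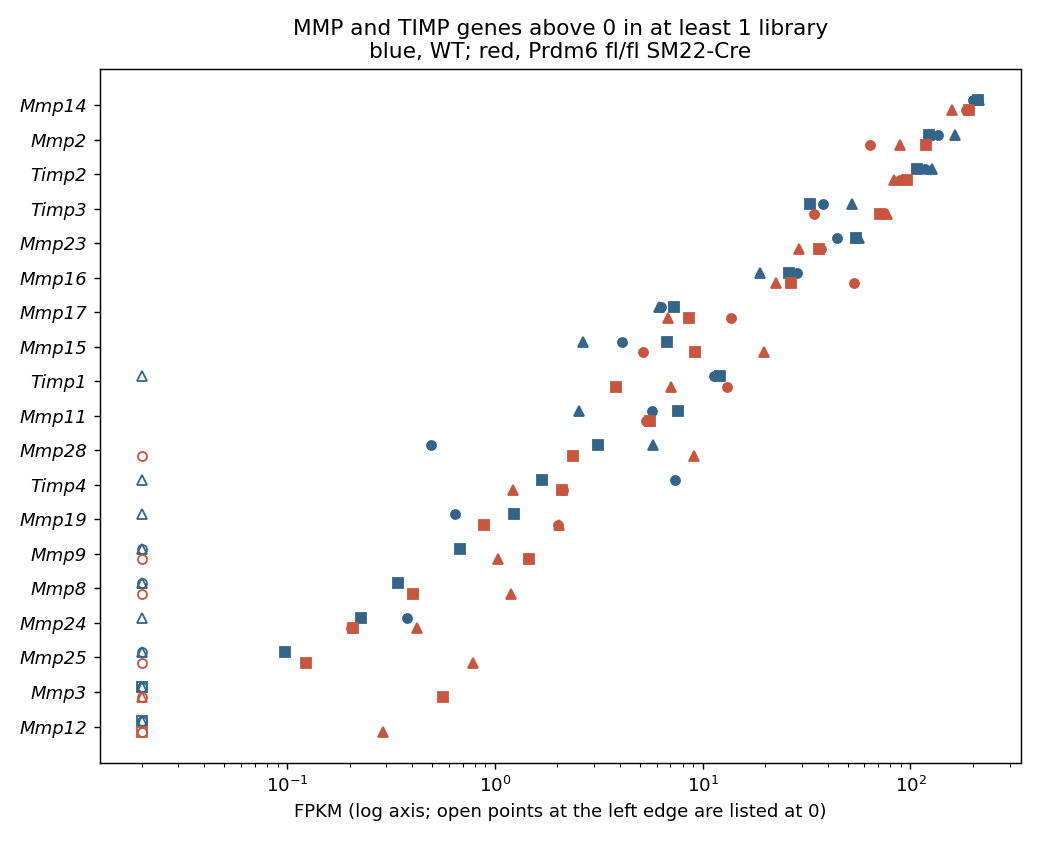
FPKM (log axis) of each MMP and TIMP gene above 0 in at least 1 library, ordered by the mean over 6 libraries, with circles, squares, and triangles for libraries 0, 1, and 2. *Mmp14*, *Mmp2*, and *Timp2* lie at the top, at 64.1 FPKM or more in every library, and *Mmp9* is listed at 0 in 3 libraries (open points).

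Over all 23 MMP genes of the table, *Mmp14* alone made up 45.4% to 50.6% of the summed MMP FPKM of a library. *Mmp14*, *Mmp2*, and *Mmp23* together made up 87.9% to 92.3% in the WT libraries and 78.2% to 86.0% in the cKO libraries. Of the 17 MMP genes outside the members, 8 were listed at 0 in all 6 libraries and 4 had a mean of at least 1 FPKM. Among the latter was *Mmp16*, a membrane-type MMP, which was at 28.6, 26.0, and 18.9 FPKM in WT libraries 0, 1, and 2 and at 53.4, 26.7, and 22.5 FPKM in the cKO libraries. *Mmp17*, which is tethered by a lipid anchor, was at 6.32, 7.31, and 6.15 against 13.6, 8.59, and 6.79 FPKM. Both groups overlapped for each gene, and cKO library 0 was the highest of the 6 for each. *Mmp19* lay between 0 and 2.05 FPKM and *Mmp28* between 0 and 9.11 FPKM, also with overlap. All 4 had an unadjusted p over 0.05 in limma, the smallest being 0.206 for *Mmp17*.

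**Figure D2:**
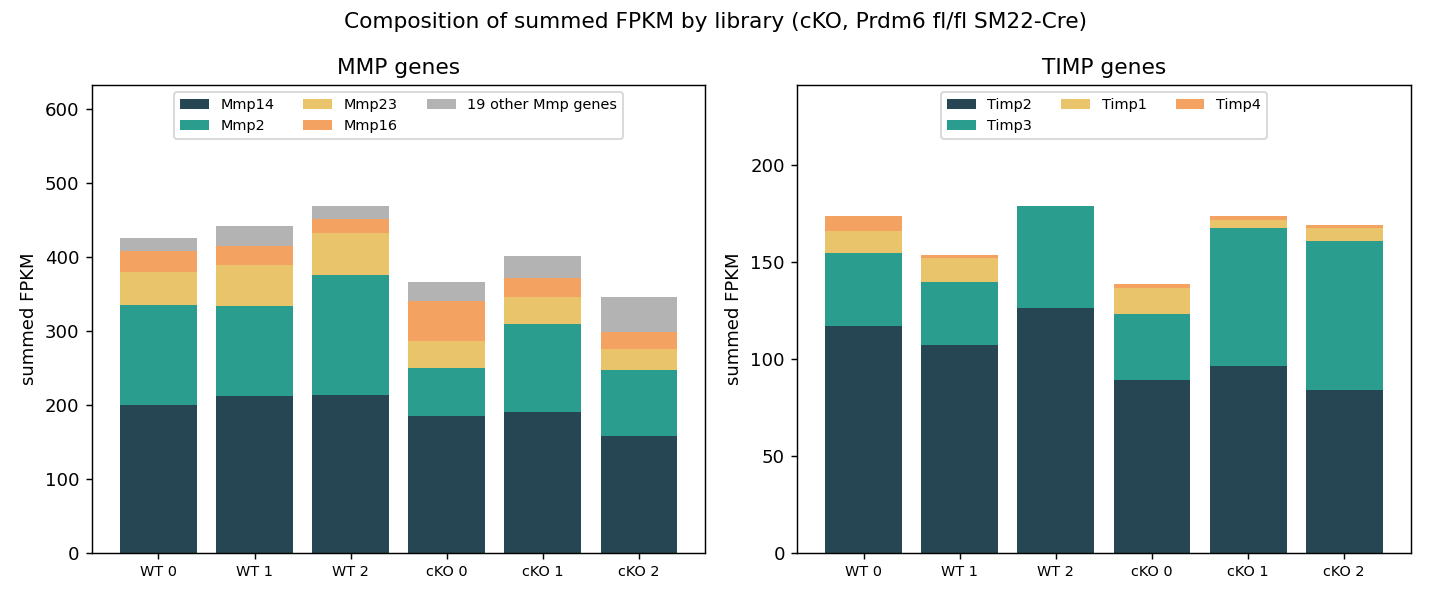
Summed FPKM of the MMP genes (left) and the TIMP genes (right) in each library, split by gene, with cKO for cKO. *Mmp14* is the largest part of every left bar, and the *Timp3* part of the right bars is larger in cKO libraries 1 and 2, at 41.2% and 45.5%.

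*Mmp2*, *Mmp14*, *Mmp23*, and *Timp2* were lower in every cKO library than in every WT library, by 14.4% to 35.5% of the WT mean, and none passed the adjusted threshold. *Mmp15* and *Timp3* were higher on average, with overlap, and the sign for *Mmp11*, *Timp1*, and *Timp4* turned when WT library 2 was left out. *Mmp9* was too low to test. The groups were compared with limma on log2(FPKM + 0.1) over the 12955 genes that averaged 1 FPKM or more. On this scale a library listed at 0 weighs heavily. The log2 fold change of *Timp1*, with near-equal means of 7.79 and 7.98 FPKM, was 1.58, and 0.59 with a pseudocount of 1. Of the 10 members, 9 passed this filter, and 0 of the 9 had an adjusted p under 0.05, against 0.00772% of all tested genes (1 gene). Before adjustment, 3 of the 9 had a p under 0.05 and were lower, against 4.97% of all tested genes, and 0 were higher, against 3.31%. Without cKO library 0, which held both *Xist* and *Ddx3y*, 1 member was lower (*Mmp23*) and 2 were higher (*Mmp15* and *Timp3*) at an unadjusted p under 0.05. The share of all genes in that fit is not given, so these counts have no background beside them. For 4 of the 9 the groups did not overlap with the cKO libraries lower, against 7.84% of all tested genes, and for 0 with them higher, against 8.21%. The median log2 fold change was 0.19 over the 9 members, the value of *Mmp11*, and 0.072 over all tested genes. With quantile normalization these medians were 0.00095 and 0.036. With a filter at a mean FPKM of 5 they were -0.020 over 8 members and 0.014. For this comparison the paper reports many more differentially expressed genes than limma called here. Among its downregulated pathways it lists collagen fibril organization and extracellular matrix assembly. Its legend gives a larger group size than the libraries at hand, and its test was not repeated. The low number of genes called here is therefore no evidence that few genes differ. Nothing says that the libraries of a group came from separate litters, so p values measure the spread between these libraries, and with 3 against 3 an exact permutation test cannot give a p under 0.1.

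**Figure D3:**
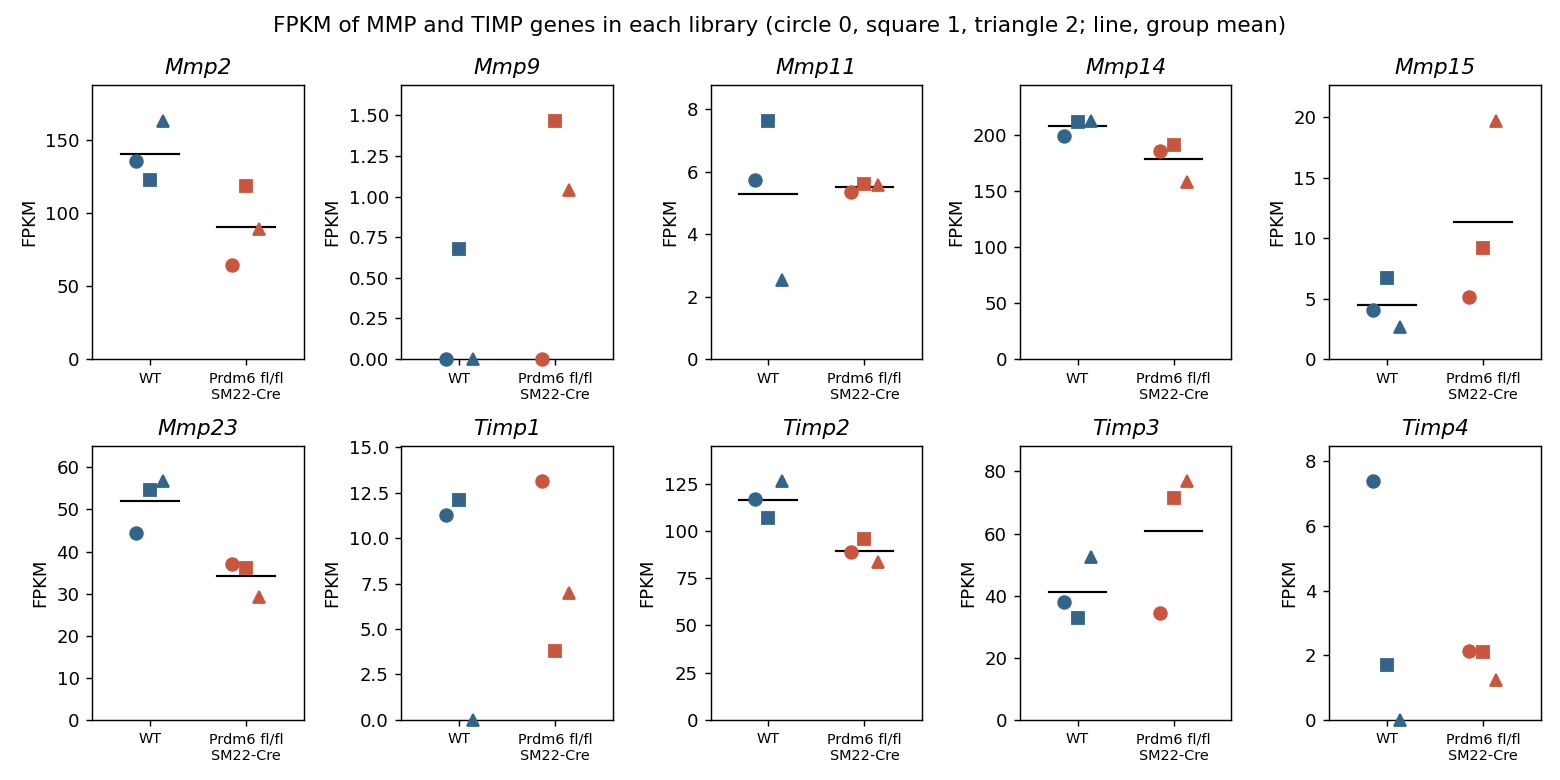
FPKM of each of the 10 members in the 3 WT libraries (blue) and the 3 cKO libraries (red), with the group mean as a line where no library is listed at 0. The red points of *Mmp2*, *Mmp14*, *Mmp23*, and *Timp2* all lie below the blue ones.

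*Mmp2*, which cuts gelatin and type IV collagen of basement membranes, was at 135, 122, and 163 FPKM in WT libraries 0, 1, and 2 and at 64.1, 118, and 88.9 FPKM in cKO libraries 0, 1, and 2. The highest cKO library lay just below the lowest WT library, and cKO library 0 was the lowest of the 6. The means were 140 ± 20.8 FPKM (SD, n = 3) and 90.4 ± 27.1 FPKM (SD, n = 3). The log2 fold change was -0.67 (standard error 0.25, 95% confidence interval -1.24 to -0.095, unadjusted p = 0.0278, adjusted p = 0.574 from limma). It stayed negative in 6 of 6 fits that left out 1 library, from -0.88 to -0.44, the weaker end being without cKO library 0, and 2 of these fits kept an unadjusted p under 0.05. With quantile normalization it was -0.54 and the groups overlapped.

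*Mmp14* was at 199, 212, and 213 FPKM in the WT libraries and at 186, 191, and 158 FPKM in the cKO libraries. The groups did not overlap, but the step between them was small beside the level. The means were 208 ± 7.47 FPKM (SD, n = 3) and 178 ± 17.6 FPKM (SD, n = 3). The log2 fold change was -0.23 (standard error 0.15, 95% confidence interval -0.58 to 0.13, unadjusted p = 0.175, adjusted p = 0.688 from limma). With quantile normalization it was -0.029 and the groups overlapped, and without cKO library 2 it was -0.14.

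*Timp2*, which both inhibits MMP14 and carries pro-MMP2 to it, was at 117, 107, and 126 FPKM in the WT libraries and at 89.0, 96.1, and 83.7 FPKM in the cKO libraries, with no overlap. The means were 117 ± 9.68 FPKM (SD, n = 3) and 89.6 ± 6.19 FPKM (SD, n = 3). The log2 fold change was -0.38 (standard error 0.15, 95% confidence interval -0.73 to -0.029, unadjusted p = 0.0371, adjusted p = 0.591 from limma). Each fit without 1 library kept the sign, from -0.44 to -0.32, and 1 of the 6 had an unadjusted p under 0.05. With quantile normalization it was -0.24, still without overlap.

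*Mmp23* was at 44.4, 54.6, and 56.7 FPKM in the WT libraries and at 37.0, 36.1, and 29.1 FPKM in the cKO libraries. Of the 4 members without overlap it had the widest gap between the groups relative to its level. The means were 51.9 ± 6.55 FPKM (SD, n = 3) and 34.1 ± 4.34 FPKM (SD, n = 3). The log2 fold change was -0.61 (standard error 0.19, 95% confidence interval -1.04 to -0.17, unadjusted p = 0.0127, adjusted p = 0.54 from limma). In all 6 fits without 1 library the unadjusted p was under 0.05, with log2 fold changes from -0.71 to -0.50. With quantile normalization the log2 fold change was -0.52, still without overlap.

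**Figure D4:**
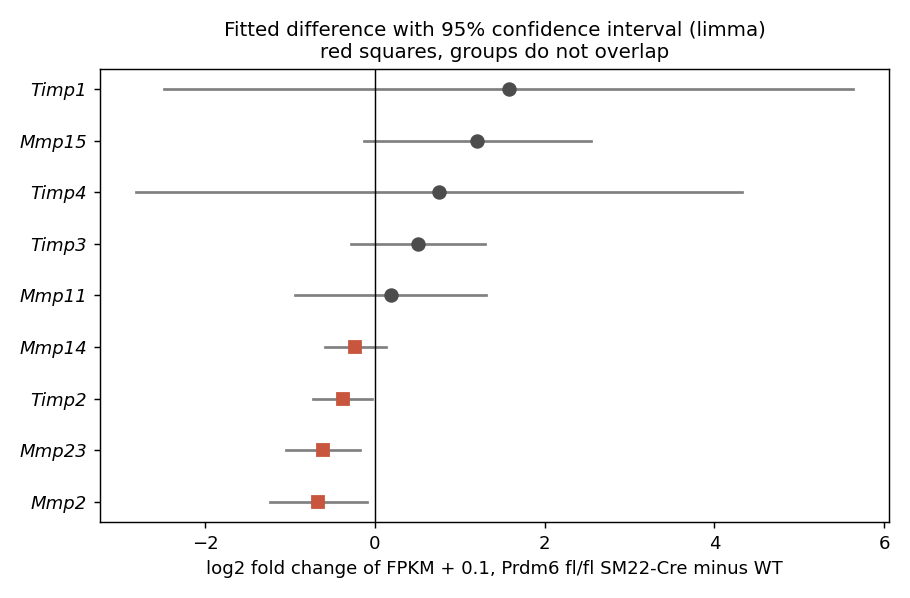
Log2 fold change (FPKM + 0.1) of the 9 tested members, cKO minus WT, with 95% confidence intervals from limma and squares for members whose groups do not overlap. The intervals of *Mmp2*, *Mmp23*, and *Timp2* lie below 0 before adjustment, and those of *Timp1* and *Timp4*, each with a library listed at 0, are the widest.

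*Mmp15*, a membrane-type MMP related to *Mmp14*, was at 4.08, 6.71, and 2.65 FPKM in the WT libraries and at 5.14, 9.21, and 19.7 FPKM in the cKO libraries. The groups overlapped and library 2 of the latter was far above the rest. On the log2 scale cKO was higher by 1.21 (standard error 0.58, 95% confidence interval -0.13 to 2.55, unadjusted p = 0.0708, adjusted p = 0.62 from limma), and by 0.71 without that library. It was higher by 1.67 without cKO library 0 (unadjusted p = 0.0235 from limma) and by 1.54 without WT library 1 (unadjusted p = 0.0468 from limma), so that 2 of the 6 fits without 1 library had an unadjusted p under 0.05. *Mmp11*, which is activated inside the cell by furin, was at 5.73, 7.64, and 2.55 FPKM in WT and at 5.36, 5.60, and 5.57 FPKM in cKO. The cKO values lay within the range of the WT values, and the log2 fold change of 0.19 turned to -0.26 without WT library 2. Exons of *Mmp11* share 155 bases with *Chchd10* on the opposite strand, which was at 0 to 9.48 FPKM, so that reads there cannot be assigned if strand was not used. *Mmp9*, the gelatinase of leukocytes, did not pass the filter. It was at 0, 0.677, and 0 FPKM in the WT libraries and at 0, 1.47, and 1.04 FPKM in the cKO libraries, and no fold is given for values this low.

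*Timp3* was at 38.0, 32.8, and 52.3 FPKM in the WT libraries and at 34.3, 71.4, and 76.8 FPKM in the cKO libraries. Libraries 1 and 2 of the latter were above all WT libraries and library 0 was not. The log2 fold change was 0.51 (standard error 0.34, 95% confidence interval -0.28 to 1.29, unadjusted p = 0.172, adjusted p = 0.687 from limma), and ranged from 0.30 without cKO library 2 to 0.88 without cKO library 0 (unadjusted p = 0.0102 from limma). *Timp1*, a secreted inhibitor, was at 11.3, 12.1, and 0 FPKM in the WT libraries and at 13.1, 3.81, and 7.01 FPKM in the cKO libraries. Its log2 fold change of 1.58 (standard error 1.75, adjusted p = 0.782 from limma) rested on the 0 of WT library 2, without which it was -0.72. *Timp4* was at 7.37, 1.69, and 0 FPKM in WT and at 2.12, 2.10, and 1.22 FPKM in cKO, and its log2 fold change of 0.76 (standard error 1.54, adjusted p = 0.879 from limma) turned to -0.97 without WT library 2. For *Timp1* the sign thus rested on that library. The mean of *Timp4* was lower in cKO, at 1.81 against 3.02 FPKM in WT. Its log2 fold change was -0.023 with a pseudocount of 1, so the sign for *Timp4* depended on the pseudocount as well as on WT library 2.

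The genes of *Timp1*, *Timp3*, and *Timp4* each lie inside a synapsin gene on the opposite strand, *Syn1*, *Syn3*, and *Syn2*. *Timp3* shares 1733 exon bases with *Syn3*, *Timp4* shares 90 with *Syn2*, and *Timp1* shares 0 with *Syn1*. *Syn3* was at 0 to 1.84 FPKM in the 6 libraries, far below *Timp3*. *Syn2*, at 0.036 to 3.17 FPKM, was near the level of *Timp4*, so that the values of *Timp4* are uncertain if the reads were counted without strand. *Syn1* was at 0.285 to 3.52 FPKM.

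Proteases and inhibitors were also summed. In the deposited scaling, the FPKM of the 6 MMP members summed to 389 to 438 in the WT libraries and 297 to 362 in the cKO libraries, without overlap. *Mmp14*, *Mmp2*, and *Mmp23*, each lower in every cKO library, make up most of these sums, so the sums are no separate result. With quantile normalization, run after seeing the data, these sums were 362 to 409 and 314 to 379 FPKM and overlapped. The 4 TIMPs summed to 154 to 179 and 139 to 173 FPKM in the deposited scaling, with overlap. The ratio of these sums was 2.24, 2.63, and 2.45 in WT and 2.14, 2.08, and 1.79 in cKO, so that each of the latter was below each of the former. With quantile normalization, also run after seeing the data, the ratio was 2.20 to 2.58 in WT and 1.78 to 2.19 in cKO, still without overlap. The separation of the ratio depended on which MMPs were summed. Over all 23 MMP genes, also computed after seeing the data, the ratio to the summed TIMPs was 2.45, 2.88, and 2.62 in WT and 2.64, 2.31, and 2.05 in cKO, and the groups overlapped. In cKO library 0, *Mmp16*, which is not among the members, was at 53.4 FPKM. *Timp2* made up 67.3% to 70.7% of the summed TIMP FPKM in the WT libraries and 49.6% to 64.3% in the cKO libraries, and *Timp3* 21.4% to 29.3% and 24.7% to 45.5%.

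The ratio of *Mmp2* to *Timp2* was 1.16, 1.14, and 1.29 in the WT libraries and 0.719, 1.23, and 1.06 in the cKO libraries. The groups overlapped, with a log2 difference of -0.29 (two-sided exact permutation test, p = 0.3, adjusted p = 0.3 over 2 ratios), and of -0.063 without cKO library 0. The ratio of *Mmp14* to *Timp2* was 1.71, 1.98, and 1.68 in the WT libraries and 2.08, 1.99, and 1.89 in the cKO libraries. Its log2 difference of 0.15 was again within the overlap of the groups (two-sided exact permutation test, p = 0.2, adjusted p = 0.3). *Mmp9* and *Timp1* were both above 0 in WT library 1 and cKO libraries 1 and 2 only, and their ratio was not tested.

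Across the 6 libraries, which include the difference between the groups, log2(FPKM + 0.1) of *Mmp14* and *Mmp23* had a Pearson r of 0.95, *Mmp23* and *Timp2* of 0.88, *Mmp2* and *Timp2* of 0.86, and *Mmp14* and *Timp2* of 0.85. *Mmp15* ran the other way, with an r of -0.82 to *Mmp14* and -0.83 to *Timp2*. The tested genes most like *Mmp23*, the member with the smallest unadjusted p, were *Sh3bp1*, *Trim45*, *Gng8*, *Gpatch8*, and *Setd1b*, with r from 0.968 to 0.996. Those most like *Mmp14*, the most abundant member, were *Med13l*, *Ube2c*, *Gng8*, *Ppm1b*, and *Acvr1*, with r from 0.971 to 0.996. These values describe 6 points.

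Markers of SMCs, Schwann cells, and neurons differed between the groups without overlap of their sums. The 10 SMC markers summed to 5799, 2904, and 2522 FPKM in WT libraries 0, 1, and 2 and to 2415, 1812, and 925 FPKM in cKO libraries 0, 1, and 2, and 10 of 10 had a lower mean in the latter. In bulk tissue, fewer SMCs and less RNA per SMC cannot be told apart. The 8 fibroblast markers, whose cells also make *Mmp2*, summed to 789 to 1380 FPKM and 913 to 1361 FPKM, with 4 lower and 4 higher. Markers of Schwann cells summed to 16.9 to 40.3 and 49.5 to 180.0 FPKM (9 of 10 higher) and those of neurons to 9.20 to 27.1 and 40.6 to 68.4 FPKM (9 of 9 higher). These counts compare means and include low genes. Above 0 in every library were 5 of the 10 Schwann cell markers and 2 of the 9 neuronal markers. The neuronal marker *Th* was listed at 0 in all 3 WT libraries and in cKO library 1, and was at 0.286 and 1.87 FPKM in cKO libraries 0 and 2. Erythroid markers summed to 3864 to 7584 and 4285 to 24361 FPKM, endothelial markers to 304 to 458 and 393 to 555 FPKM, and epithelial and mesothelial markers to 66.7 to 233 and 82.1 to 185 FPKM. Macrophage markers summed to 38.2 to 219 and 40.4 to 264 FPKM, and neutrophil and mast cell markers to 12.7 to 74.5 and 7.42 to 92.5 FPKM. The part of these cells in the levels of the members was not tested. Without WT library 1 and cKO library 2, the 2 libraries high in heart muscle markers, the log2 fold change was -0.77 for *Mmp2*, -0.13 for *Mmp14*, -0.46 for *Mmp23*, and -0.39 for *Timp2*. *Mmp15* was at 1.04 and *Timp3* at 0.15, and 0 members had an unadjusted p under 0.05 in limma.

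A list of 25 genes was drawn up around MMP activation and inhibition outside the TIMPs, and not all of them act on MMPs directly. Of these, 21 were tested, of which 13 were lower and 8 higher, with a median log2 fold change of -0.081. With quantile normalization 10 were lower and 11 higher, with a median of 0.026. In this list 1 of the 21 had an unadjusted p under 0.05 and was lower, against 4.97% of all tested genes, and 0 were higher, against 3.31%. The gene was *Lrp1*, the endocytic receptor that takes up MMPs and TIMPs, which was at 88.0, 92.3, and 89.0 FPKM in the WT libraries and at 56.9, 67.6, and 62.2 FPKM in the cKO libraries, without overlap (log2 fold change -0.53 ± 0.15 standard error, with limma's unadjusted p = 0.00775 and adjusted p = 0.502). *Itgav*, an integrin subunit named after its values were seen, was the 1 gene of the list that was higher without overlap, at 38.1 to 41.6 FPKM and 47.0 to 50.3 FPKM (log2 fold change 0.25, adjusted p = 0.67 from limma). *Reck*, a membrane-anchored inhibitor of MMPs, and *Furin*, which activates membrane-type MMPs, were chosen for these roles after their values were seen. *Reck* was at 19.5 to 22.1 FPKM and 20.5 to 24.0 FPKM, and *Furin* at 18.2 to 26.6 FPKM and 18.2 to 18.6 FPKM, both with overlap.

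Of 25 matrix substrates and partners, all were tested, with 14 lower and 11 higher and a median log2 fold change of -0.12. With quantile normalization 12 were lower and 13 higher, with a median of 0.021, and 1 lower and 2 higher had an unadjusted p under 0.05. The share of all genes at that p under quantile normalization is not given. In the deposited scaling, before adjustment, 3 of the 25 were lower with a p under 0.05, against 4.97% of all tested genes, and 1 was higher, against 3.31%. *Col6a1*, a chain of the beaded-filament type VI collagen, had a log2 fold change of -0.88 (adjusted p = 0.535 from limma), with 190 to 297 FPKM in the WT libraries and 89.3 to 156 FPKM in the cKO libraries. *Col5a1*, of the collagen that nucleates fibrils, was at 240.0 to 310 and 172 to 218 FPKM (-0.49, adjusted p = 0.586 from limma), and *Fn1*, fibronectin, had -0.58 (adjusted p = 0.6 from limma). *Lum*, a proteoglycan that binds fibrillar collagen, was higher, at 47.0 to 109 and 131 to 172 FPKM (1.16, adjusted p = 0.48 from limma). None of the 10 ADAM genes, a related family of membrane metalloproteinases that TIMP3 can inhibit, had an unadjusted p under 0.05 in limma, with 6 lower and 4 higher. Over all tested genes the shares at that p were 4.97% lower and 3.31% higher.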

How the data were processed

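The authors trimmed the reads by quality and length, used TopHat2 for alignment (build mm10), and obtained an FPKM value per gene and library through Cufflinks and Cuffdiff. Versions, annotation, strand, and scaling between libraries are not given in the sources used here. The 6 columns of the deposited FPKM table were matched to libraries by title, with 0 left over.

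The deposited FPKM table was analysed as log2(FPKM + 0.1) with limma 3.58.1 in R 4.3.3 (lmFit, eBayes with trend) over the 12955 genes averaging 1 FPKM or more, two-sided, with Benjamini-Hochberg adjustment over all of them. Cuffdiff needs aligned reads and was not repeated. Means are given with SD, except for genes listed at 0 in a library.

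Gene positions came from GENCODE vM21 on GRCm38. Named are all members, list genes with an unadjusted p under 0.05 (at most 5 per list), other MMPs with a mean FPKM of at least 1, the 5 genes most like each of 2 members, and *Prdm6*. Genes named outside this rule, after their values were seen, are *Itgav*, *Reck*, *Furin*, the marker *Th*, *Xist* and *Ddx3y*, and the overlapping genes *Chchd10*, *Syn1*, *Syn2*, and *Syn3*. Members, lists, and tests were chosen with earlier results of these data known. The ratio of *Mmp9* to *Timp1*, which was planned, has libraries at 0 and was not tested. Alternatives were the pseudocount, filter, scaling, variance model, replicate block, and leaving out libraries. Leaving out WT 1 and *Prdm6* fl/fl SM22-Cre 2 together, the sums over all MMP genes, and the quantile-normalized sums were chosen after seeing the data.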

Additional observations from a re-analysis of the deposited data

How the results depend on the processing

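A filter at a mean FPKM of 5 left *Timp4* without a value. Under the 17 alternatives run, *Mmp2*, *Mmp14*, *Mmp23*, and *Timp2* kept a negative log2 fold change and *Mmp15* and *Timp3* a positive one, and no member reached an adjusted p under 0.05, the lowest being 0.433 for *Mmp23*. The range was -0.88 to -0.44 for *Mmp2*, -0.28 to -0.029 for *Mmp14*, -0.71 to -0.46 for *Mmp23*, -0.44 to -0.24 for *Timp2*, 0.71 to 1.67 for *Mmp15*, and 0.15 to 0.88 for *Timp3*. With 1 library left out, *Mmp11* ranged from -0.26 to 0.51, *Timp1* from -0.72 to 2.75, and *Timp4* from -0.97 to 2.14, each negative in the fit without WT library 2 and in no other of these fits, and *Timp4* was also -0.023 with a pseudocount of 1. The 3 members with an unadjusted p under 0.05 became 1 with quantile normalization, 1 without the mean-variance trend, 0 without WT 1 and cKO 2, and 1 to 4 with 1 library left out (1 lower and 2 higher without cKO library 0, and 3 lower and 1 higher without WT library 1). The 4 members without overlap became 2 with quantile normalization. The shares of all genes under these alternatives are not given, so these counts of members have no background beside them. With 1 library left out they were 4 to 6, which says nothing of stability, since separate groups stay separate in any subset. The single gene called over all genes became 2 without the trend, 2 without moderation, 3 without both heart-rich libraries, and 1 to 3 with 1 library left out. The cause of these shifts was not tested. The log2 ratio of summed MMP to summed TIMP, -0.28, was -0.94 without *Mmp14* and *Timp2*, -0.26 with quantile normalization, and -0.19 over all MMP genes. Deviations of same-numbered libraries from their group means had correlations of 0.12, -0.076, and -0.0088. With 3 libraries a group these cannot decide whether the numbers in the titles pair the libraries. With the replicate block, 2 members had an unadjusted p under 0.05, as had 1118 against 1073 of all genes, and 1 gene was called. With 3 libraries a group and no read counts, the depth behind each value is unknown.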
